A study of Rattus norvegicus with 8 samples.

Results

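Mlana, the gene of the small melanosome protein MART-1, had the largest log2 difference between Dex and Control of all 41012 probes on the array. Here it is described together with the other genes of the pigment cell lineage named beside it, Pmel, Tyr, Tyrp1, Dct, Mitf and Mc1r. Mlana was chosen by its difference between the groups, so its values are a description without a test, and the other 6 genes were chosen by lineage. Of the 7 genes, 6 had a probe among the 18343 gene names on the array, matched by name or accession, with 7 probes in all because Tyrp1 had 2. No probe of Mc1r was found. The probe that the array calls Si measures sucrase-isomaltase and not the old silver locus, so it was left out and the Silv probe was used for Pmel. The probe for Dct carries the older name RGD1564975, which the rat gene table lists as a synonym.

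Rat primary thymocytes, the immature T lymphocytes of the thymus, came from adrenalectomized male Sprague-Dawley rats, animals without adrenal glands as a source of their own glucocorticoid. The thymi of 3 rats were pooled for each preparation. Cells were cultured for 6 h without hormone (Control, 4 arrays) or with dexamethasone, a synthetic glucocorticoid, at 100 nM (Dex, 4 arrays), and RNA was measured on 1-color Agilent Whole Rat Genome arrays. The paper states 3 biological replicates and does not name the arrays used, so all 8 were kept and the p-values measure the spread between these arrays.

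Melanocytes make pigment inside melanosomes, which are organelles related to lysosomes. Pmel forms the fibrils on which melanin is laid down, Mlana assists the maturation of Pmel, and the enzymes Tyr, Tyrp1 and Dct carry out melanin synthesis. Mitf, the master transcription factor of the lineage, binds a short sequence called the M-box in the promoters of such genes, and Mc1r is the melanocortin receptor that acts upstream of Mitf.

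The promoters of the 7 genes were found by symbol in RefSeq (build GRCr8) and their 250 bases before the start were read. The M-box was searched as TCATGTG on both strands. It was in 4 of the 7, those of Mlana, Tyr, Tyrp1 and Dct, while 3.07% of 33469 promoters of the same length held it. The stretch of 250 bases before the start of Mlana, on the plus strand of GRCr8 chr1:236882825-236883074, is shown because it also held the other motif searched, TGTTCT, one arm of the glucocorticoid response element. Capitals mark the M-box, here read on the opposite strand from 204 to 198 bases before the start, and the arm from 70 to 65 bases before the start.
Mlana: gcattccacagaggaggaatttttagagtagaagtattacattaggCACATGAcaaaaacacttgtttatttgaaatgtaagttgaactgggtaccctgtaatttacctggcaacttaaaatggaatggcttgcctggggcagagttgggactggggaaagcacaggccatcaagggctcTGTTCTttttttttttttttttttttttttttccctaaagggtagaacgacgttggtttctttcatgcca

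The M-box of the 3 enzyme genes is shown with 20 bases on either side, to set the same 7 letters beside those of Mlana. The windows lie at chr1:150622952-150622998 (minus strand), chr5:100327037-100327083 (plus strand) and chr15:101508141-101508187 (minus strand) of GRCr8.
Tyr: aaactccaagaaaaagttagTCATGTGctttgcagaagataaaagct
Tyrp1: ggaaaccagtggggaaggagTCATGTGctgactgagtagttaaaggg
Dct: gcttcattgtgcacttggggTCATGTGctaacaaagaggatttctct

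All 3 enzyme genes held the M-box on the strand of the gene, at 121 to 115 bases before the start in Tyr, 68 to 62 in Tyrp1 and 138 to 132 in Dct. The arm TGTTCT was in the Mlana stretch and in no other of the 7, and 17.5% of all promoters held it on either strand. The full response element, searched as the reverse complement of this arm, any 3 bases and the arm, was in none of the 7 and in 0.012% of all promoters. These are matches of letters, and binding was not measured.

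Across the whole series, 24937 to 34488 probes per array carried the flag that the scanner software sets for signal well above background, with the lowest numbers on Dex 1 (26496) and Dex 2 (24937), and no spot was saturated. All 13 thymocyte marker genes on the array, such as Cd3d and Cd8a, were well above background on all 8 arrays. By limma 0 of the 13 were called at an adjusted p of 0.05, against 0.778% of all probes, and their median log2 difference, Dex minus Control, was -0.13 with 10 of 13 below 0. An unadjusted p under 0.05, as in 10.6% of all probes, was found for 4 of them, Lck (-0.68), Ptcra (-0.61), Rag1 (-0.59) and Cd8b (0.52, with no value on Control 1). Of 10 melanocyte markers without Mlana, 3 were above background on all 8 arrays (Pmel, Sox10 and Slc24a5) and 5 on none, namely Tyrp1, Dct, Gpr143, Slc45a2 and Oca2. The summed normalized signal of the 10 was 375 to 412 in Control and 306 to 338 in Dex. Without Slc24a5 the sum of the other 9 was 244 to 276 in Control and 237 to 281 in Dex, and these ranges overlapped. Of the markers of other cells, 1 of 10 fibroblast and vessel genes was called. This was Pecam1, listed as a vessel marker, higher in Dex by 1.36 (adjusted p = 0.0208). The call was lost with the replicate block (adjusted p = 0.108) and without any 1 array but Dex 2 or Dex 3 (adjusted p = 0.0667 to 0.0971). Its difference was 0.59 with normexp, another background correction. Cdh5 and Kdr of the same list had 0.53 (adjusted p = 0.604) and -0.68 (adjusted p = 0.719). The list had a median log2 difference of 0.60 and a summed signal of 1250 to 2340 in Control and 888 to 2290 in Dex. Of 11 thymic epithelium markers 10 had a difference above 0 (median 0.33), with sums of 3120 to 5060 in Control and 4110 to 6050 in Dex, while 20513 of all 41012 probes had a difference above 0. Several of these differences lay in Dex 3 and Dex 4, such as that of Foxn1, a transcription factor of thymic epithelium, which was 6.58, 6.74, 7.08 and 6.83 in Control and 6.28, 6.09, 8.44 and 8.31 in Dex. Of 11 macrophage and dendritic cell markers 7 had a difference above 0 (median 0.21), with sums of 4520 to 6220 and 4390 to 8840. Mrc1, named after its values were seen, was higher by 2.12 (SE 0.43, adjusted p = 0.087), and by 0.68 with normexp. It passed with slide as a random block (SE 0.30, adjusted p = 0.00957), a fit with a negative within-slide correlation (-0.235). The sums of 4 B cell markers were 118 to 180 and 112 to 236, and those of 4 erythroid markers 401 to 1490 and 451 to 2590. In the fit without a block none of the genes of these 4 lists was called, and an unadjusted p under 0.05 was found for 3 macrophage and dendritic cell markers and no other of them, against 10.6% of all probes. The sums of these lists overlapped between the groups, and their part in the Mlana difference was not tested. In such bulk samples a change in the number of cells of a type and a change in RNA per cell cannot be told apart.

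Mlana was low in Control and high in Dex on every array. Its processed intensities before normalization were 108, 77.7, 91.4 and 171 on Control 1 to 4 and 4400, 4160, 1520 and 1810 on Dex 1 to 4. On the quantile-normalized log2 scale these became 6.62, 6.04, 6.60 and 7.16 in Control and 11.57, 11.47, 11.27 and 11.66 in Dex. The groups were far apart, with at least 4.11 log2 units between any Control and any Dex array, and the Dex arrays lay closer together than the Control arrays. The means were 6.60 ± 0.46 (SD, n = 4) and 11.49 ± 0.17 (SD, n = 4), a difference of 4.89 (SE 0.24), or 29.6-fold. The next largest difference of any probe was 4.63. The single Mlana probe (accession XM_215234) lies at chr1:233588650-233588709 of build rn3, the build of the array annotation, and was well above background on all 8 arrays. Control 1 and Dex 3 shared a slide, and within it the difference was 4.65. With normexp background correction the difference was 3.76, and without any 1 array it was 4.70 to 5.08.

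**Figure D1:**
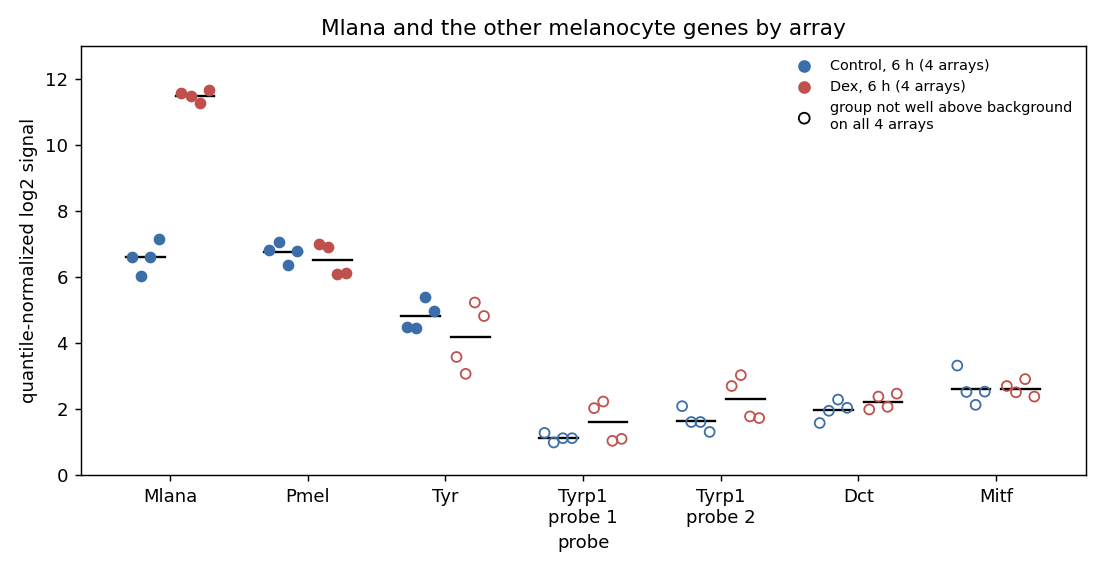
Quantile-normalized log2 signal (vertical axis) of the 7 probes (horizontal axis) on the 4 Control and 4 Dex arrays. Points are arrays, bars are group means, and open points are groups that were not well above background on all 4 arrays. Mlana is at 6.04 to 7.16 in Control and 11.27 to 11.66 in Dex, and the groups of the other 6 probes overlap.

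None of the other 5 genes was called. Only Pmel was above background on all 8 arrays, while Tyr was so on 4 Control and 2 Dex arrays. Of the 6 probes of these 5 genes, 0 passed limma at an adjusted p of 0.05 over all probes, whereas 0.778% of all probes did, 0.563% as higher and 0.215% as lower in Dex. Their lowest adjusted p was 0.572, 0 of the 6 had an unadjusted p under 0.05 (10.6% of all probes did), and 0 had an exact permutation p at or under 0.05. In 0 of the 6 were the Dex and Control arrays free of overlap, against 9.11% of all probes. A p that misses the threshold does not show that the levels were equal. Intervals of the difference are given for Pmel and Tyr, and the other 4 probes were at or near background.

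Pmel, the fibril protein, was 6.82, 7.05, 6.38 and 6.79 in Control and 7.01, 6.90, 6.08 and 6.13 in Dex on the log2 scale. Dex 1 and Dex 2 lay within the Control range and Dex 3 and Dex 4 below it. The probe (chr7:2016883-2017134 in rn3) was well above background on all 8 arrays, and the difference was -0.23 (SE 0.28, 95% interval -0.86 to 0.40, limma adjusted p = 0.826). The exact two-sided permutation test of the signal to noise statistic gave p = 0.40, where 70 assignments of the arrays allow no p below 0.0286. The upper end of the Pmel interval is far below the difference of Mlana.

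Among the melanin enzymes, Tyr, which starts melanin synthesis, was well above background on all 4 Control arrays and on 2 Dex arrays. Its log2 values were 4.50, 4.45, 5.41 and 4.98 in Control and 3.58, 3.07, 5.23 and 4.82 in Dex. Dex 1 and Dex 2, the arrays with the fewest probes above background, were below every Control array, and Dex 3 and Dex 4 were within the Control range. The difference was -0.66 (SE 0.49, 95% interval -1.79 to 0.48, limma adjusted p = 0.715), and the exact permutation p was 0.314. Within the pairs of the same replicate number, Dex was lower in all 4, by differences of -0.92, -1.38, -0.18 and -0.16, and with the replicate block the SE was 0.27 and the adjusted p 0.414. Within the slide shared by Control 1 and Dex 3 the difference was 0.73, the opposite sign, and with normexp it was -0.10. The Tyr probe lies at chr1:143729537-143729596 (rn3), on the same chromosome as Mlana.

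Tyrp1, which stabilizes Tyr, and Dct, which acts on dopachrome, were not well above background on any array, so no fold is given. The first Tyrp1 probe (chr5:99541998-99542057, rn3) was 1.28, 0.99, 1.12 and 1.12 in Control and 2.03, 2.23, 1.04 and 1.10 in Dex (limma adjusted p = 0.66). The second (chr5:99529465-99529524, rn3) was 2.09, 1.61, 1.61 and 1.31 in Control and 2.70, 3.03, 1.78 and 1.73 in Dex (limma adjusted p = 0.572). In both, Dex 1 and Dex 2 were highest and Dex 3 and Dex 4 were within the Control range. Before normalization, the intensities of the first probe were 1.74 to 2.52 in Control and 1.97 to 2.63 in Dex, near the bottom of the scale. Whether the fewer probes above background on Dex 1 and Dex 2 bear on these values was not tested. Dct (chr15:102798468-102798527, rn3) was 1.58, 1.95, 2.29 and 2.04 in Control and 1.99, 2.38, 2.07 and 2.47 in Dex, and these ranges overlapped (limma adjusted p = 0.723).

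Mitf was well above background on 0 of 4 Control arrays and 1 of 4 Dex arrays, so its level was not measured in either group and no fold is given. The values were 3.32, 2.52, 2.13 and 2.53 in Control and 2.70, 2.51, 2.91 and 2.38 in Dex (limma adjusted p = 0.999), with all Dex values inside the Control range. The probe lies at chr4:132982175-132985433 in rn3. The related factors Tfe3, Tfeb and Tfec, which bind similar sites, were on the array too, and 0 of the 3 were called in either direction, with 1 of the 3 at an unadjusted p under 0.05, against 0.778% and 10.6% of all probes. Tfeb, a regulator of lysosome genes, was 9.68, 9.68, 9.40 and 9.65 in Control and 9.32, 9.40, 8.84 and 8.99 in Dex, with a difference of -0.47 (SE 0.18, adjusted p = 0.397), and Tfe3 had a difference of -0.28 (SE 0.25, adjusted p = 0.763), which was -0.01 with normexp. The Tfeb groups touched at 9.40 without overlap, and Control 3 was the low Control array.

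The other genes of the pathway were read from 4 lists with 53 of 57 genes on the array, each by its brightest probe. Of these 53, 0 were called higher and 1 was called lower, against 0.563% and 0.215% of all probes, and 7 had an unadjusted p under 0.05, as did 10.6% of all probes. Their median difference was -0.02, and that of all probes was 0.00. The groups did not overlap in 8 of the 53, against 9.11% of all probes.

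The called gene was Slc24a5, a cation exchanger of the melanosome, and it was lower in Dex. It was 7.10, 7.08, 7.02 and 7.10 in Control and 6.26, 6.11, 5.74 and 5.44 in Dex, above background on all 8 arrays. Every Dex array lay below every Control array, with a wider spread in Dex. The difference was -1.18 (SE 0.20, 0.44-fold, limma adjusted p = 0.0487), and within the shared slide it was -1.36. This call is at the threshold. With the replicate numbers as a block it was lost (adjusted p = 0.158), it was lost on leaving out any single array (adjusted p = 0.0672 to 0.187), and it passed under 4 of 15 alternatives, while all 15 kept the direction. With normexp the difference was -0.62 (adjusted p = 0.0102).

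Slc24a5 was 1 of 16 melanosome cargo and transport genes on the array, and none of the others passed. Sytl2, an adaptor of Rab27a, was 5.82, 5.39, 4.60 and 5.85 in Control and 7.27, 7.22, 5.45 and 6.00 in Dex, with a difference of 1.07 (SE 0.48, adjusted p = 0.491). Dex 1 and Dex 2 were the highest arrays, Dex 3 was within the Control range, and within the shared slide the sign was opposite (-0.37). Atp7a, the copper pump that supplies Tyr, had a difference of -0.73 (SE 0.34, adjusted p = 0.503). With normexp these were 0.49 for Sytl2 and -0.34 for Atp7a. The median of the list was -0.02.

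The genes for sorting to lysosome-related organelles, among them the Hps and Bloc1s genes, were well above background on all 8 arrays in 19 of 19 cases, and 0 of the 19 were called (0.778% of all probes were), with 1 at an unadjusted p under 0.05 (10.6% of all probes). Their median difference was 0.02. The largest difference was that of Ap3d1, a subunit of the AP-3 sorting adaptor, which was 8.66, 8.83, 9.00 and 9.04 in Control and 9.11, 9.24, 9.46 and 9.53 in Dex. These groups did not overlap, but the difference of 0.45 (SE 0.17, adjusted p = 0.377) did not pass. Stx3, a fusion protein, had 0.37 (SE 0.20, adjusted p = 0.588), and Rabggta, which attaches the lipid anchor to Rab proteins, had 0.35 (SE 0.18, adjusted p = 0.575).

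Of 15 lineage regulators and signals on the array, 0 were called, and 4 had an unadjusted p under 0.05, against 0.778% and 10.6% of all probes. Kit, the receptor that melanoblasts and early thymocyte progenitors share, was 4.28, 4.45, 3.24 and 3.93 in Control and 5.53, 5.53, 4.68 and 4.76 in Dex. The groups did not overlap, and the difference was 1.15 (SE 0.33, adjusted p = 0.235). Kit passed only with slide as a random block (SE 0.24, adjusted p = 0.0267), a fit with a negative within-slide correlation (-0.235). Its ligand Kitlg had a difference of 1.12 (SE 0.50, adjusted p = 0.493), with only Dex 1 and Dex 2 above the Control range and 2 Control arrays above background. Zeb2, a repressor needed for neural crest cells, was 5.03, 5.36, 4.10 and 4.53 in Control and 4.17, 3.24, 2.71 and 3.51 in Dex, a difference of -1.35 (SE 0.38, adjusted p = 0.217), with 1 Dex array above background, so its Dex level is uncertain. These differences depended on the background correction, since with normexp they were 0.27 for Kit, 0.20 for Kitlg and -0.19 for Zeb2. Of 8 Schwann cell and neural crest markers, 0 were called and 1 had an unadjusted p under 0.05, against 0.778% and 10.6% of all probes.

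The known glucocorticoid genes show the scale of the response in the same arrays. Of 12, 7 were called higher and 0 lower, against 0.563% and 0.215% of all probes, with a median difference of 1.48. This list was chosen with the effect of the hormone known and is no independent evidence of its direction. Tsc22d3, which encodes GILZ, had a difference of 3.59 (SE 0.18, adjusted p = 0.000153), and Ddit4, an inhibitor of mTOR signaling, had 3.73 (SE 0.19, adjusted p = 0.000153). Dusp1, a MAP kinase phosphatase, had 3.05 (SE 0.21, adjusted p = 0.000927). Sgk1, a kinase gene named here after its values were seen, was lower in Dex with no overlap between the groups and missed the threshold narrowly (-1.32, SE 0.23, adjusted p = 0.0503), which it passed with normexp (0.021), without dim probes (0.0266) and with slide as a random block (0.00583). The others that were called were Klf9 at 1.98, Fkbp5 at 1.73, Errfi1 at 1.56 and Nfkbia at 1.41. With the replicate block the calls of Nfkbia (adjusted p = 0.0673) and Errfi1 (adjusted p = 0.103) were lost, and Errfi1 also missed the threshold without Control 4 (adjusted p = 0.0504). With scaling to the 75th percentile Klf9 (adjusted p = 0.0657), Fkbp5 (0.0533), Errfi1 and Nfkbia lost their calls, and with slide as a fixed block all 7 did.

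**Figure D2:**
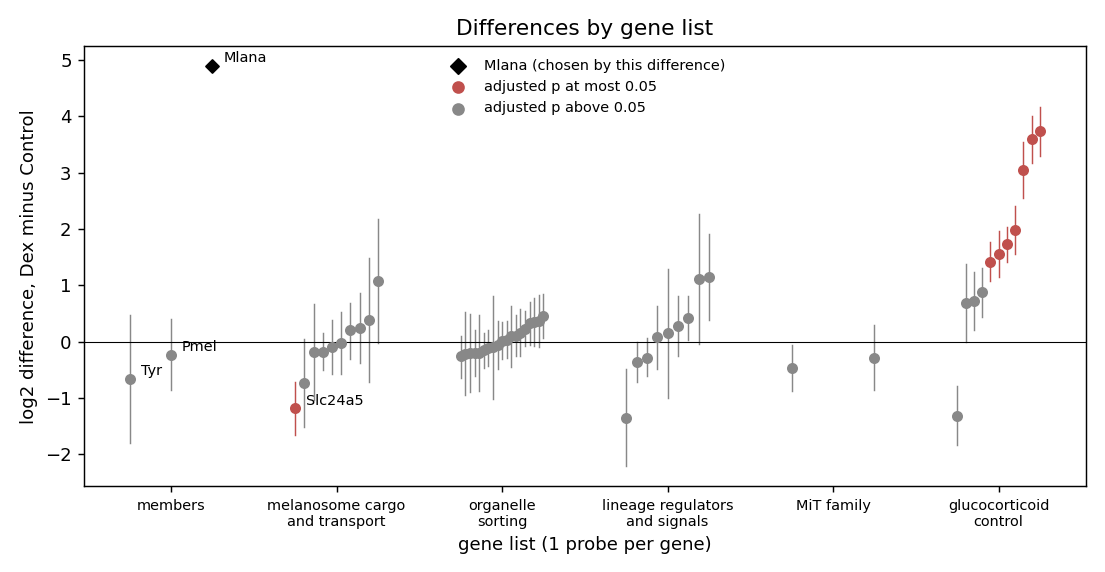
Log2 difference, Dex minus Control (vertical axis), of the genes of each list (horizontal axis, 1 probe per gene), with 95% intervals from limma except for Mlana. Only genes well above background on all 4 arrays of the brighter group are drawn, 3 of 6 members and 10, 19, 9, 2 and 11 genes of the following lists. Mlana is at 4.89, apart from the other pigment genes, of which Slc24a5 at -1.18 is the only one called.

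The genes next to Mlana on chromosome 1 were then compared. Within 1 Mb of the Mlana probe lay 59 other probes by the rn3 annotation, of which 4 were called (against 0.778% of all probes), all higher in Dex, and 33 carried a gene name, from 24 genes. Both named probes that were called belonged to Cdc37l1, a cochaperone gene 788.4 and 776.9 kb before the Mlana probe. The first was 5.58, 5.09, 4.86 and 4.87 in Control and 7.33, 7.97, 6.58 and 6.83 in Dex, with a difference of 2.08 (SE 0.33, adjusted p = 0.0353). The second was 8.73, 8.73, 8.68 and 8.65 in Control and 10.40, 10.61, 10.25 and 10.17 in Dex, with a difference of 1.66 (SE 0.15, adjusted p = 0.00339). In both, every Dex array lay above every Control array. The size of the first was 1.01 with normexp and 1.0 within the shared slide. With the replicate block the first lost its call (adjusted p = 0.0915), as it did without any 1 of the Control arrays, Dex 1 or Dex 4 (adjusted p = 0.0709 to 0.144). The other called probes were 2 transcripts without a gene name, CX570717 at 771.8 kb with a difference of 1.31 (adjusted p = 0.0102) and TC541717 at 100.4 kb with 1.16 (adjusted p = 0.0376), both on the same side of Mlana as Cdc37l1. Both lost their calls with the replicate block (adjusted p = 0.079 and 0.147), CX570717 also without any 1 of Control 2, Control 3 and Control 4 (adjusted p = 0.0549 to 0.0607) and TC541717 without any 1 array but Dex 3 (adjusted p = 0.0727 to 0.164). By position CX570717 lies near the Cdc37l1 probes and TC541717 near an Ermp1 probe at 97.3 kb. The 4 called probes were thus not at 4 separate places.

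Nearer to Mlana no named probe was called. The examples that follow were picked after their values were seen. Tekt5l1, farther away at 815.1 kb, had the largest difference of the neighbors, 2.10 (SE 0.37, adjusted p = 0.0576), and was not called. Ermp1, an endoplasmic reticulum peptidase gene, had 3 probes at 97.3 to 85.6 kb with differences of 1.04, 0.66 and 1.04 (adjusted p = 0.206, 0.703 and 0.497). Brd10, at 10.0 and 52.8 kb on the other side, had 0.47 and 0.52 (adjusted p = 0.444 and 0.265), and Ranbp6, a nuclear import gene, had -0.10 and -0.12 at 95.2 and 95.5 kb. The closest probe was that of the expressed sequence tag AA819036, 0.6 kb from the Mlana probe and without a gene name. It was above background on all 8 arrays, with a mean of 5.29 in Control and 5.43 in Dex and a difference of 0.15 (adjusted p = 0.83).

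**Figure D3:**
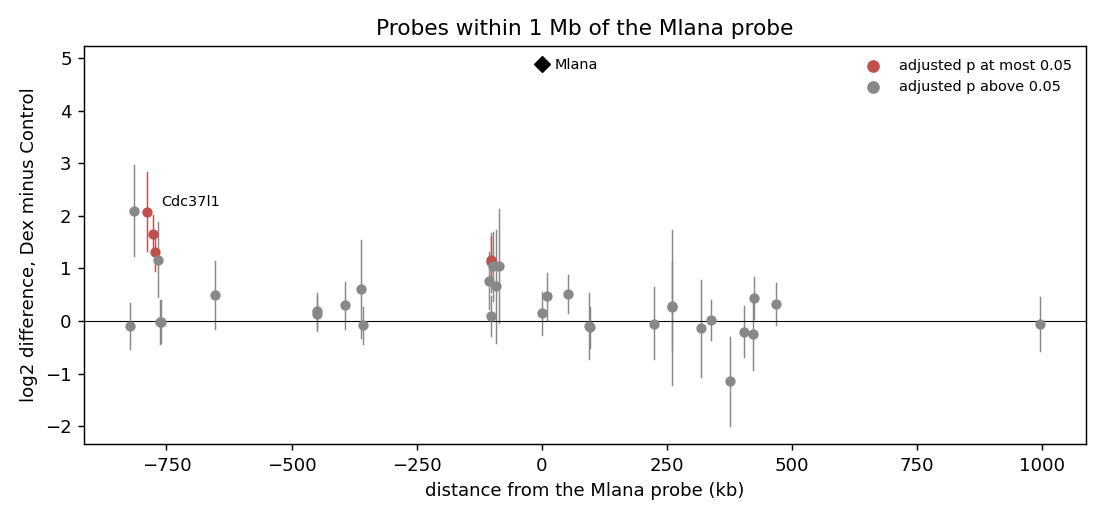
Log2 difference, Dex minus Control (vertical axis), against the distance in kb from the Mlana probe (horizontal axis) for the 37 of 59 neighboring probes well above background on all 4 arrays of the brighter group, with 95% intervals. Mlana is drawn without an interval. The probes closest to Mlana lie far below its 4.89. The called Cdc37l1 probes are at 2.08 and 1.66, and Tekt5l1, not called, is at 2.10.

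The genes most like Mlana over the 8 arrays were ranked without the members, of which only Pmel would have met the filter on the Dex arrays. By Pearson's r among named probes above background on all 4 Dex arrays, the 5 highest were Wdr62, a spindle protein gene (0.9985), Ptpn22, a phosphatase gene of T cell receptor signaling (0.9955), Babam2, a DNA repair complex gene (0.9955), Pcif1, an mRNA cap methyltransferase gene (0.9954) and Dop1b (0.9951). In each of these genes the 8 arrays form 2 separate clusters, Control and Dex, so r describes that step and carries no test. The differences of the 5 were 1.58 for Wdr62, 0.64 for Ptpn22, 2.55 for Babam2, 0.41 for Pcif1 and 1.37 for Dop1b. Wdr62 was 7.60, 7.32, 7.59 and 7.75 in Control and 9.08, 9.17, 9.10 and 9.23 in Dex. Among the Control arrays both Wdr62 and Mlana were lowest on Control 2 and highest on Control 4, a likeness that its choice by r favors. Among the Dex arrays both were highest on Dex 4, but Mlana was lowest on Dex 3 (11.27) and Wdr62 on Dex 1 (9.08).

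**Figure D4:**
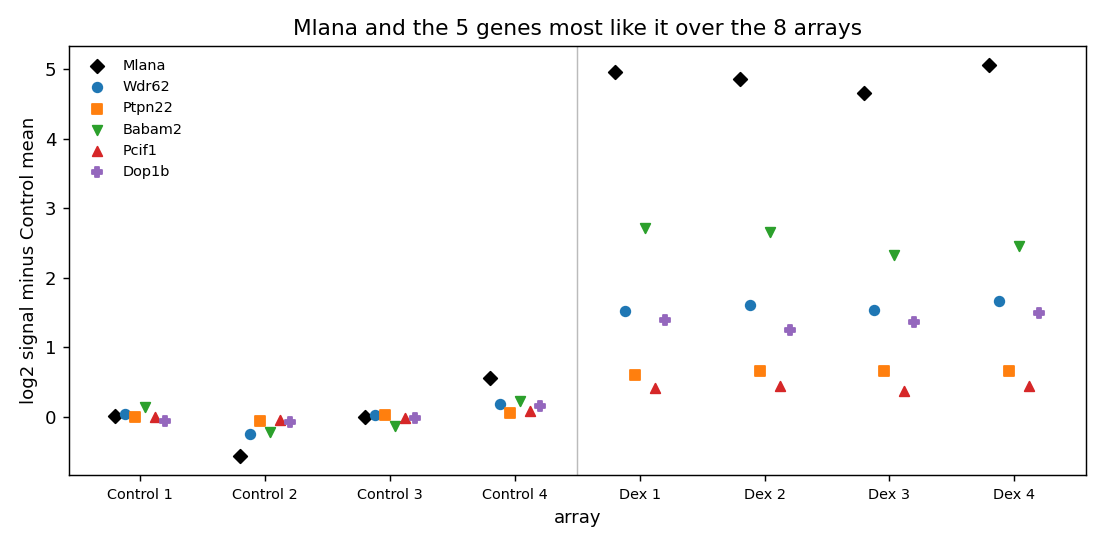
Log2 signal minus the mean of the Control arrays (vertical axis) on each of the 8 arrays (horizontal axis) for Mlana and the 5 genes with the highest Pearson's r with it. All 6 genes step up from Control to Dex, from 0.41 for Pcif1 to 4.89 for Mlana.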

How the data were processed

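Per the labels and the study's methods, the authors labeled RNA with Cy3, hybridized it to Agilent 4x44 rat arrays and extracted processed intensities, which are background-subtracted, with Feature Extraction. The deposited intensity values are not normalized between arrays, and flags for outliers, saturation and signal above background come with each spot. A quantile-normalized log2 table was deposited too. Here outlier spots were dropped (16 missing values), the intensities were log2-transformed and quantile normalized, and spots of a probe were combined by median polish. The result differed from the deposited log2 table by a median of at most 0.00158 per array. No value column was left without a sample.

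Dex was tested against Control with limma (version 3.58.1, R 4.3.3), two-sided, over all 41012 probes with Benjamini-Hochberg adjustment at 0.05, without a block. Single member probes were also tested by the study's signal to noise statistic over all 70 assignments of the arrays. The limma fit was tested on simulated data without slide or replicate structure. Tables and motif searches used Python 3.11.15. Probes were named by accession, by array name without the suffixes _predicted and _mapped, or by a unique synonym. Oca2 was taken from the array's description of the probe.

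The members and lists were chosen with earlier results of these data known. Named are all member probes, the called genes of each list or up to 3 with the largest difference above background, called neighbors within 1 Mb, and the 5 genes most like Mlana. Replicate numbers 1 to 4 occur in both groups. Deviations from the group means correlated between arrays of the same number at 0.397, 0.129, 0.55 and 0.184, above the limit of 0.1. The numbers were therefore used as pairs in the alternative fit with a replicate block, while the main fit was unpaired. Arrays of different number reached similar values (0.401 between Control 1 and Dex 2, 0.188 between Control 2 and Dex 1, 0.392 between Control 3 and Dex 4), so the pairing is not unique to these numbers. Slides hold Control 2 to 4, Dex 1, 2 and 4, and Control 1 with Dex 3, so slide and group overlap almost fully. As a random block, slide had an estimated correlation of -0.235, and genes such as Mrc1 and Kit had a smaller SE than without a block. A pass in that fit alone therefore carries no added weight. The number of arrays limits the precision. The alternatives were other scalings, background correction, the deposited table, a filter on dim probes, blocks for replicate and slide, and leaving out each array.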

Additional observations from a re-analysis of the deposited data

Results flagged for a closer look

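The Control values of Tfeb were 9.68, 9.68, 9.40 and 9.65, and the gap below the others to Control 3 was 0.889 of the group's range, which is above Dixon's critical value for 4 samples. This was 1 of 74 groups looked at, and chance alone would flag about 1 group in 20.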

How the results depend on the processing

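The difference of Mlana was 3.76 with normexp background correction, which moved it by more than the spread between replicates, and 4.70 to 5.08 without any 1 array. The probes of the other members called stayed at 0 under all 15 alternatives, paired by replicate block included. Under the filter on dim probes only those of Pmel and Tyr were tested. The difference of Tyr turned to 0.73 with slide as a fixed block, a fit that rests on Control 1 and Dex 3, and that of Sytl2 to -0.37. Of the wider pigment genes, 0 were called with scaling to the 75th percentile, with the replicate block, with slide as a fixed block and without any 1 array, and 2 with slide as a random block. The number of all probes called, 319, became 166 with scaling to the 75th percentile, 915 with normexp, 562 without dim probes, 81 with the replicate block, 1 and 1838 with slide as a fixed and a random block, and 96 to 249 without any 1 array. Pmel kept its direction and side of the threshold in all 16 alternatives. The called glucocorticoid genes and neighbors of Mlana and Pecam1 all lost their calls with slide as a fixed block, and Fkbp5, Klf9, Errfi1 (adjusted p = 0.096), Nfkbia (0.1), CX570717 (0.0891), TC541717 (0.107) and Pecam1 (0.0629) also with scaling to the 75th percentile. Among the named genes recomputed, the replicate block changed the calls of Slc24a5, Nfkbia, Errfi1, 1 Cdc37l1 probe, CX570717, TC541717 and Pecam1 and no others. The cause of these shifts was not tested. Probes at background, those of Tyrp1, Dct and Mitf, carry no fold, and a change in them may lie below what these arrays detect.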
